A study of Mus musculus with 12 samples.

Results

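T cells weigh antigen receptor signals against costimulatory and inhibitory ones, and regulatory T cells (Tregs) add suppressive molecules of their own. Engagement of the receptor starts a chain of kinases and adaptors that ends in gene activation, and phosphatases, lipid kinases and ubiquitin ligases hold it back. Binding of FOXP3, the transcription factor that defines Tregs, and of Ku70, the Xrcc6 product, known for its part in joining broken DNA, was examined at 56 genes of this system. The genes encode the antigen receptor and its coreceptors, the kinases and adaptors below it, negative regulators, costimulatory and inhibitory receptors, suppressor effectors, cytokine and chemokine receptors, and surface markers of activation. They were taken as a list of symbols, and all 56 were found among the 21755 protein-coding genes on autosomes and X in GENCODE M21. Their length ranged from 2.73 to 215 kb with a median of 23.7 kb, against 17.4 kb for all protein-coding genes.

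The study profiled 12 samples by chromatin immunoprecipitation sequencing (ChIP-Seq), in 4 sets of 2 immunoprecipitated replicates and 1 input. FOXP3 was precipitated from wild-type (WT) and from Ku70-deficient (KO) Tregs, and Ku70 from WT Tregs and from WT conventional T cells (Tconv). All mice were on a C57BL/6J background and carried a Cre recombinase fused to a yellow fluorescent protein (YFP) at the Foxp3 locus. The WT mice were Foxp3 Yfp-Cre, and the KO mice were Xrcc6 fl/fl Foxp3 Yfp-Cre, in which Xrcc6 is removed in cells that express Foxp3. Tregs were sorted as CD4+CD25+YFP+ cells and Tconv as CD4+CD25-YFP- cells, and the age of the mice is not given in the sources used here for these samples. Both replicates of a set had been pooled before regions were called against the input, which leaves 1 list a set, no spread between replicates and no test between conditions. All counts below describe these lists, and their 95% intervals (Wilson) speak only of counting error. The regions carry no read counts, and the study's summary of sequencing depth was not used here. RNA was not measured in these samples, so neither the sorted cell types nor the loss of Xrcc6 could be checked in them.

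A gene was counted for a list when the summit of a region, the point of highest enrichment, fell inside the gene or within 50 kb of either end. By this rule 20 of the 56 genes (35.7%) had a region in at least 1 list, and 36 had none. Among all protein-coding genes the share was 35.8%. For a background of like length, the 50 protein-coding genes nearest in length to each member were taken, and of these 34.5% had a region. The 20 genes held 40 regions, and no region was counted for more than 1 member. Ku70 regions lay at 17 members (30.4%), against 30.9% of all protein-coding genes and 30.0% of those of like length. FOXP3 regions lay at 4 (7.14%), against 9.18% and 8.86%. Themis was the only member with both (1.79%), against 4.34% and 4.32%. A region was found in exactly 1 list at 16 members (28.6%, as for 28.6% of all protein-coding genes), in 2 lists at 3 members (5.36% against 6.02%), in 3 lists at 1 member (1.79% against 0.906%) and in 4 lists at 0, against 0.193%.

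The regions that carry the findings below are shown as the summit base and 50 bases on either side, on the mm10 plus strand, in lower case, with the central 31 bases in capitals. These 31 bases are the sequence whose copies in the genome were counted. The Prkcq, Klrg1 and Themis sequences are the FOXP3 sites of WT Tregs, and Themis is shown also for Ku70. The Icos, Dgka and Nt5e sequences are the Ku70 sites nearest to the start of a member, and Ccr7 and Nrp1 hold the strongest Ku70 sites, by fold, of Tregs and Tconv at members. Those of Icos, Dgka and Nt5e were picked after their positions were seen.
Prkcq, WT FOXP3, chr2:11218315-11218415: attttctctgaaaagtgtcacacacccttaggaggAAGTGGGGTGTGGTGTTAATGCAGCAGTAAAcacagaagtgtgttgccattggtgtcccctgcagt
Klrg1, WT FOXP3, chr6:122235503-122235603: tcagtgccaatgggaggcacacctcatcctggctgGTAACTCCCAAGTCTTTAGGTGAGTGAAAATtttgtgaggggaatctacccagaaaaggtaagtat
Themis, WT FOXP3, chr10:28794533-28794633: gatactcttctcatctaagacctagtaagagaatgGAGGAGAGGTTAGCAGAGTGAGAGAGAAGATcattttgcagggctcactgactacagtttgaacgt
Themis, Tconv Ku70, chr10:28697113-28697213: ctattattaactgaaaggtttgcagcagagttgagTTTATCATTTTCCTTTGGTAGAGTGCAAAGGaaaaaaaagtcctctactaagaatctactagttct
Icos, Treg Ku70, chr1:60976028-60976128: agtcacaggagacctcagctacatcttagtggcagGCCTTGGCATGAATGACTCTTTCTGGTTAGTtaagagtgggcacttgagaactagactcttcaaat
Dgka, Treg Ku70, chr10:128746594-128746694: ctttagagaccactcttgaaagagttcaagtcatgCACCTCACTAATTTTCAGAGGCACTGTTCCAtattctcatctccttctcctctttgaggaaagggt
Nt5e, Treg Ku70, chr9:88329862-88329962: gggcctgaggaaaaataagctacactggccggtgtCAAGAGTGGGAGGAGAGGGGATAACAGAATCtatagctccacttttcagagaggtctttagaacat
Ccr7, Treg Ku70, chr11:99145257-99145357: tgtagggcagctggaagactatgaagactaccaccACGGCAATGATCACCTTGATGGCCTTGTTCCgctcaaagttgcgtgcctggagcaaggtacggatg
Nrp1, Tconv Ku70, chr8:128344924-128345024: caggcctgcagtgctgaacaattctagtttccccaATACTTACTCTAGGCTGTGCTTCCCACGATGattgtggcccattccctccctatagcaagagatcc

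Whether the list as a whole was occupied more often than other genes was addressed by these counts. WT FOXP3 regions were found at 4 of the 56 genes, 7.14% (2.81 to 17.0%), against 7.19% of all protein-coding genes and 6.64% of genes of like length. KO FOXP3 regions lay at 1 gene, 1.79% (0.316 to 9.45%), against 2.58% and 2.75%. Treg Ku70 regions marked 15 genes, 26.8% (17.0 to 39.6%), against 23.6% and 22.3%. For Tconv Ku70 the count was 5 genes, 8.93% (3.87 to 19.3%), against 10.8% and 11.1%. In each list the like-length share lay inside the interval of the members, and the ratio of the member share to it was 1.08, 0.649, 1.20 and 0.801, in the same order.

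**Figure D1:**
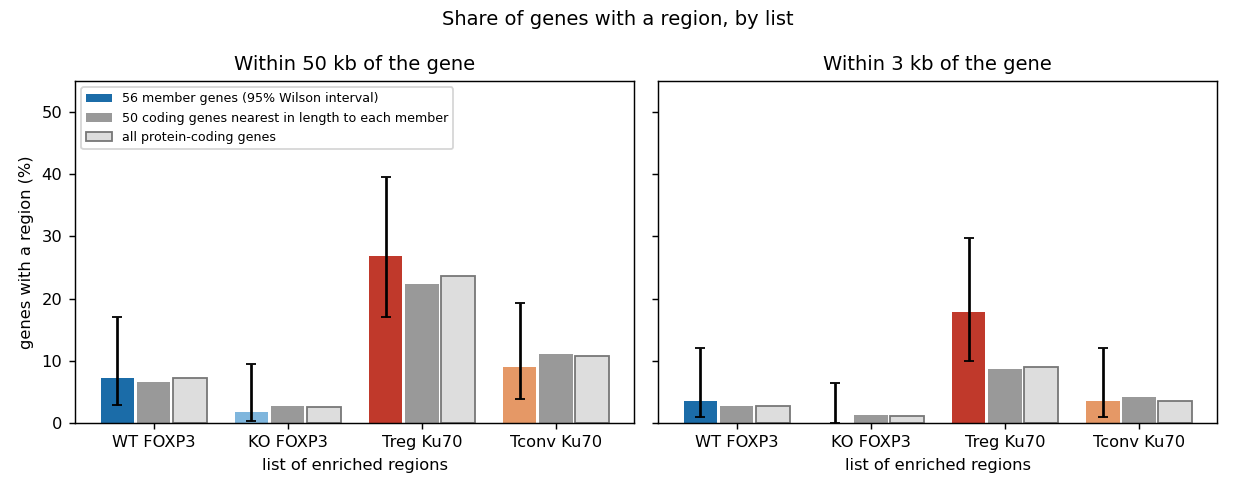
Share of genes with a region within 50 kb (left) or 3 kb (right) for each of the 4 lists, for the 56 members (coloured, error bars are 95% Wilson intervals), for the 50 protein-coding genes nearest in length to each member (dark grey) and for all protein-coding genes (light grey). Within 50 kb every member bar has the like-length share inside its interval, and within 3 kb the Treg Ku70 bar, at 17.9%, has it below its interval, at 8.61%. The members were chosen with earlier results of these data known.

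Close to the genes the Treg Ku70 count was smaller, and its ratio to genes of like length was higher. With a window of 3 kb on either side of the whole gene, Treg Ku70 regions marked 10 of 56 members, 17.9% (10.0 to 29.8%), against 9.0% of all protein-coding genes and 8.61% of genes of like length, which lay below the interval. The ratio to like-length genes was 2.07 (1.16 to 3.47), and within 50 kb it was 1.20 (0.761 to 1.78). The members were chosen with earlier results of these data known, so these intervals cannot show that the list is enriched. The 10 were Cblb, Ccr7, Cd247, Dgka, Icos, Itgae, Nrp1, Nt5e, Tgfbr1 and Themis. Only Icos and Dgka had the summit upstream of the gene, and in the others at least 1 summit lay in the gene body. In the Tconv Ku70 list 2 members had a region within 3 kb (3.57%, against 3.55% of all protein-coding genes), in the WT FOXP3 list 2 (3.57%, against 2.67%) and in the KO FOXP3 list 0, which with 56 genes has an upper Wilson bound of 6.42%, against 1.03%. The study's annotation placed its 3 kb around the transcription start, and this measure was added after the data were seen. A summit within 3 kb of the annotated gene start was found for Treg Ku70 at Dgka, Icos and Nt5e, 5.36% of members (1.84 to 14.6%), against 1.2% of all protein-coding genes and 1.07% of genes of like length. The other lists had 0 members there, against 0.257% of all protein-coding genes for WT FOXP3, 0.152% for KO FOXP3 and 0.354% for Tconv Ku70. Starts of other transcripts inside the gene were not counted. A Tconv Ku70 region lay 2.2 kb from such a start of Cblb, and a Treg Ku70 region 0.961 kb from one of Cd247.

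The number of Treg Ku70 regions per member was also above that of other genes, at 0.482 against 0.289 per gene of like length and 0.324 per protein-coding gene. It was spread over 4 members with 3 regions each (Ccr7, Dgka, Icos and Nt5e), 4 with 2 (Cblb, Cd247, Il1rl1 and Itgae) and 7 with 1. In the other lists the numbers per member were 0.0714 for WT FOXP3 against 0.0779 at like length, 0.0357 against 0.0311 for KO FOXP3 and 0.125 against 0.144 for Tconv Ku70.

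**Figure D2:**
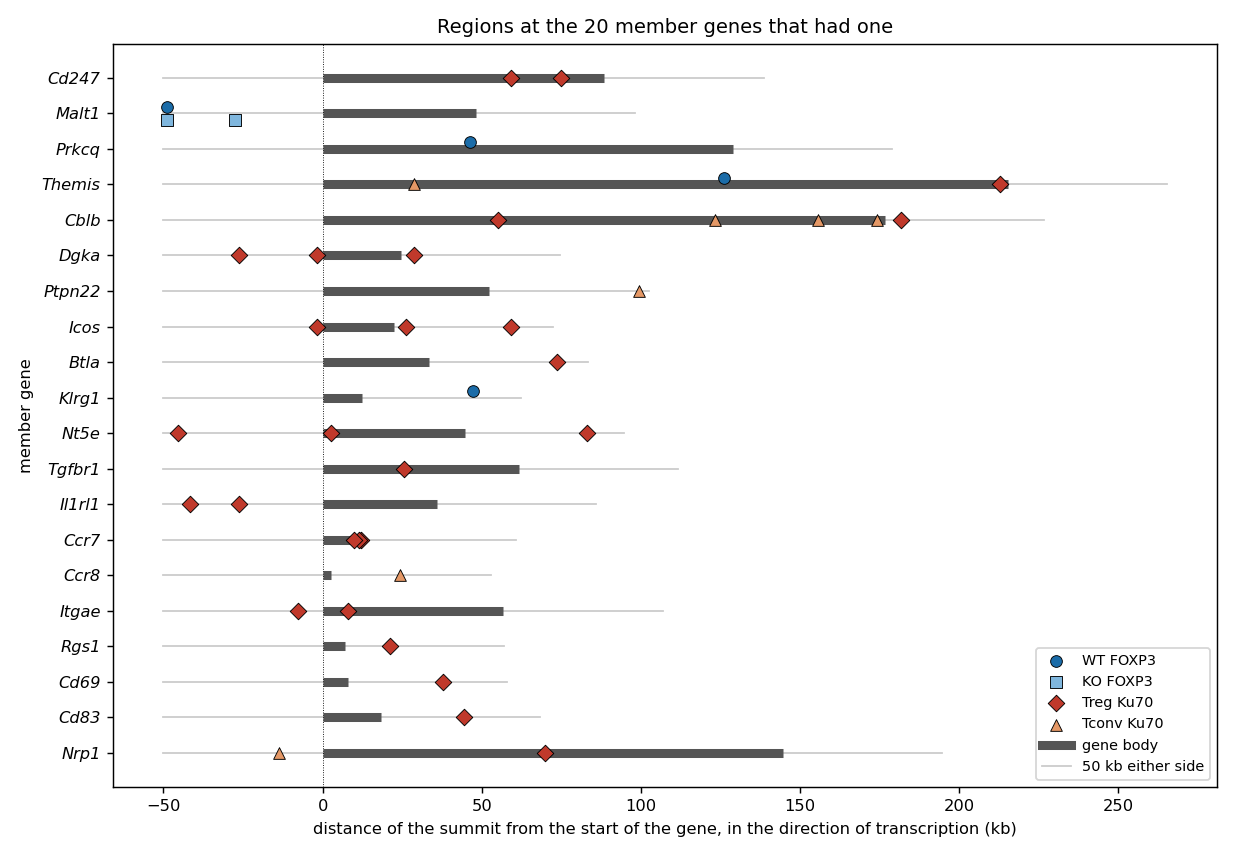
Position of each region at the 20 members that had one, as the distance of the summit in kb from the start of the gene in the direction of transcription. Thick bars are gene bodies, thin lines the 50 kb windows, and symbols mark the list. WT and KO FOXP3 symbols are offset above and below the line, and share a position only at Malt1, 49.0 kb before its start, and 3 Treg Ku70 symbols lie together at the end of Ccr7.

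The roles are small, with 4 to 10 genes each, and for genes of like length to each role the share with a region in any list ranged from 29.7% to 44.7%. The antigen receptor and its coreceptors were represented by 1 of 5 genes, against 34.0% of genes of like length. Cd247 encodes the zeta chain of the CD3 complex, which carries the receptor's signalling motifs into the cell. In the Treg Ku70 list it held a region on chromosome 1 at 165847783 to 165848054, with a fold enrichment of 2.22 over the local background and a −log10 p of 2.03. A second intronic region lay at 165863454 to 165863840 (2.10-fold, −log10 p 1.72), 0.961 kb from the start of a shorter Cd247 transcript. The 31 bases at that second summit occurred 16 times in the genome, while those at the first were single-copy. Cd3e, Cd3g, Cd4 and Cd5 had no region in any list.

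Of the 6 proximal signalling genes, 3 had a region, against 44.7% of genes of like length. These 3 were also WT FOXP3 members, against 11% at like length. All 3 are longer than 45.5 kb, and of the 5439 protein-coding genes of at least that length 11.9% had a WT FOXP3 region, against 5.11 to 6.21% in 3 equal groups of shorter genes. The share of 11% already allows for length, and no cause was tested. The roles were set with earlier results of these data known. Prkcq, which encodes protein kinase C theta, the kinase that links the T cell receptor to NF-κB, had a WT FOXP3 region in an intron on chromosome 2 at 11218293 to 11218442. At 2.59-fold and a −log10 p of 2.44 it was the strongest FOXP3 region at any member, and its summit sequence was single-copy. The forkhead core TGTTTAC was present in the printed window, read on the minus strand as GTAAACA on the plus strand printed above, with its centre 14 bases from the summit. This core, sought on both strands, lay in 1.46% of the windows of this size at WT FOXP3 regions on autosomes and X, and at 1 of the 4 member regions. The nearest Treg Ku70 summit was 142 kb away and the nearest KO FOXP3 summit 1330 kb away.

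Themis, an adaptor that tunes receptor signals during T cell selection, is the longest member, at 215 kb. It was the only member in 3 lists. Its WT FOXP3 region lay in an intron on chromosome 10 at 28794509 to 28794648 (2.29-fold, −log10 p 1.86). The Treg Ku70 region, at 28881035 to 28881174, fell in the untranslated part of an exon near the end of the gene (2.04-fold, −log10 p 1.47). In Tconv, Ku70 was listed at 28697058 to 28697278 in an intron (2.10-fold, −log10 p 1.95). The FOXP3 summit was 86.5 kb from the Treg Ku70 summit and 97.4 kb from the Tconv Ku70 summit, so the lists met at the gene and at no common site. No KO FOXP3 region lay within 50 kb, and the nearest was 74.3 kb from the gene.

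Malt1 encodes the protease of the signalling complex that carries antigen receptor signals to NF-κB. It was the only member with a region in both FOXP3 lists. In WT Tregs the region was on chromosome 18 at 65381814 to 65381966 (2.29-fold, −log10 p 1.86), and in KO Tregs at 65381811 to 65381955 (2.33-fold, −log10 p 2.02), with summits 17 bp apart. These were the 2 of the 40 regions that overlapped a region of another list, and of all 9150 regions on autosomes and X 2.77% did. The site was 49.0 kb before the start of Malt1 and inside an intron of Alpk2, so it sat just within the window and in a neighbouring gene. A second KO region lay 27.7 kb before Malt1 at 65403212 to 65403440 (1.90-fold, −log10 p 1.40), wholly in masked repeat, with a summit sequence that occurred 1217 times. Lck, Plcg1 and Zap70 had no region.

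Negative regulators of signalling had Ku70 regions at 3 of 5 genes, against 30.8% of genes of like length, and FOXP3 regions at 0, against 10.0%. Cblb encodes a ubiquitin ligase that restrains T cell activation without CD28 costimulation. It held 2 Treg and 3 Tconv Ku70 regions, the most regions of any member. The Treg regions were on chromosome 16 at 52086252 to 52086465 in an intron (2.04-fold, −log10 p 1.47) and 4.94 kb past the end of the gene at 52212945 to 52213156 (2.22-fold, −log10 p 1.78). The Tconv regions lay at 52154692 to 52154879 (2.18-fold), at 52186827 to 52186976 (2.40-fold) and at 52205469 to 52205608 in an untranslated part (2.26-fold), with −log10 p values of 2.07, 2.14 and 1.95. The first of these Tconv summits was 2.2 kb from the start of another Cblb transcript. The closest pair of Treg and Tconv summits at Cblb was 7.45 kb apart.

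Dgka encodes diacylglycerol kinase alpha, which removes the lipid messenger made downstream of the receptor. It had 3 Treg Ku70 regions on chromosome 10. The middle region, at 128746588 to 128746826 (2.22-fold, −log10 p 2.03), was 1.79 kb before the start of Dgka and 1.245 kb from the start of Pym1. A region at 128715977 to 128716156 lay in a coding exon of Pmel (2.22-fold, −log10 p 1.78), and one at 128771228 to 128771367 was intergenic (2.41-fold, −log10 p 2.03). Ptpn22, a phosphatase that dampens receptor signals, had 1 Tconv region on chromosome 3 at 103959100 to 103959292 (2.19-fold, −log10 p 1.92), 47.0 kb past its end and in an intron of Rsbn1. Dgkz and Socs1 had none.

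Costimulatory receptors had a region at 1 of 5 genes, against 30.8% of genes of like length. Icos, an inducible relative of CD28 on activated T cells, held 3 single-copy Treg Ku70 regions on chromosome 1 and none in the shorter Tconv list. They lay 1.85 kb before the start at 60976004 to 60976194 (2.22-fold, −log10 p 2.03), 3.83 kb past the end at 61004122 to 61004285 (1.85-fold, −log10 p 1.47) and 36.7 kb past the end at 61036948 to 61037098 (2.22-fold, −log10 p 2.03). Of the 40 regions, 3 were within 3 kb of the annotated start of their member, and Icos, Dgka and Nt5e held 1 each. Cd28, Tnfrsf4, Tnfrsf9 and Tnfrsf18 had none.

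Inhibitory receptors had a region at 2 of 7 genes, against 29.7% of genes of like length. Klrg1, a lectin-like receptor for cadherins on differentiated T cells, was assigned a WT FOXP3 region on chromosome 6 at 122235516 to 122235769, the weakest of the 4 (1.84-fold, −log10 p 1.34). It lay 35.0 kb past the end of Klrg1 in an exon of the pseudogene Mug-ps1, and its summit sequence occurred 3 times. Btla, which binds the receptor HVEM and restrains T cells, had a Treg Ku70 region 40.4 kb past its end on chromosome 16 at 45298081 to 45298322 (2.04-fold, −log10 p 1.47). Ctla4, the receptor that Tregs use to strip costimulatory ligands from other cells, had no region within 50 kb. The nearest Treg Ku70 region was the upstream Icos region, 60.25 kb from Ctla4. The nearest WT FOXP3 region was 1951 kb away, against a median of 522 kb over the 56 members. Havcr2, Lag3, Pdcd1 and Tigit had no region.

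**Figure D3:**
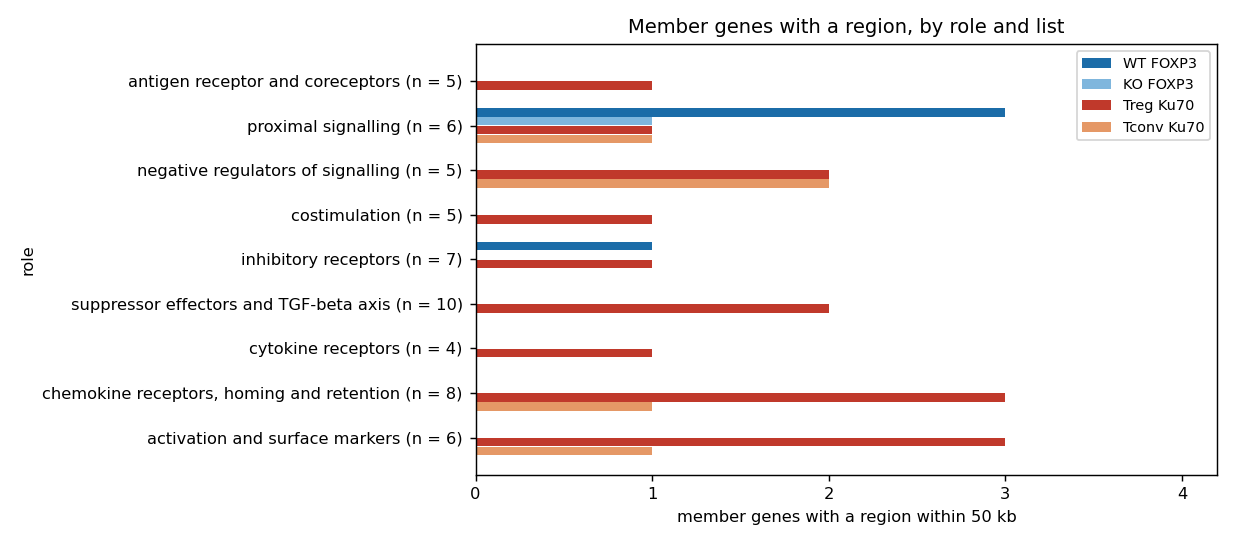
Number of member genes with a region within 50 kb, by role (number of genes in parentheses) and list. WT FOXP3 members are 3 proximal signalling genes and 1 inhibitory receptor, while Treg Ku70 has at least 1 member in every role. The lists differ in size, with 1712 WT FOXP3 and 5218 Treg Ku70 regions on autosomes and X. Of genes of like length to the members, 6.64% had a WT FOXP3 region and 22.3% a Treg Ku70 region. Whether Treg Ku70 is spread over more roles than its longer list would give was not tested.

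Among the 10 suppressor effectors and genes of the TGF-β axis, 2 had a region, against 34.6% of genes of like length. Both had it in the Treg Ku70 list. Nt5e encodes CD73, the ectoenzyme that makes adenosine from AMP. Its regions lay on chromosome 9 at 88281844 to 88282097 (2.04-fold, −log10 p 1.47), 45.3 kb before the start, at 88329844 to 88329983 (2.22-fold, −log10 p 2.03), 2.72 kb after it, and at 88410301 to 88410440 (2.22-fold, −log10 p 2.03), 38.3 kb past the end in introns of Snx14 and Gm20537. Tgfbr1, the type I receptor for TGF-β, had an intronic region on chromosome 4 at 47378939 to 47379173 (2.36-fold, −log10 p 1.96), with 94.5% of its bases in masked repeat and a single-copy summit. Ebi3, Entpd1, Gzmb, Il10, Itgb8, Lrrc32, Tgfb1 and Tgfbr2 had no region. The nearest WT FOXP3 region was 1463 kb from Il10, 501 kb from Entpd1 and 225 kb from Lrrc32. Over all 56 members the median of this distance was 522 kb and the largest 6753 kb.

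The cytokine receptors had a region at 1 of 4 genes. Il1rl1 encodes ST2, the receptor for IL-33 on tissue Tregs, and held 2 Treg Ku70 regions on chromosome 1, both upstream. The region at 40387849 to 40387988 (2.60-fold, −log10 p 2.64) lay 41.6 kb before its start and closer to Il1rl2, and that at 40403396 to 40403612 (1.85-fold, −log10 p 1.47) lay 26.15 kb before it. Both consisted of masked repeat throughout, and the summit sequence of the second occurred 63 times. The repeat TTTGTTTG, a sequence that FOXP3 can bind in tandem arrays, was found on either strand in the window of the first only. This was 1 of 27 Treg Ku70 member windows, against 1.23% of that list. Il1r2, Il6ra and Il7r had none.

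Chemokine receptors and homing genes had a region at 4 of 8 genes, against 30.8% of genes of like length. Ccr7, the receptor that takes T cells to lymph nodes, held the closest group of regions at any member. Its 3 Treg Ku70 regions were on chromosome 11 at 99142651 to 99142909 (2.41-fold, −log10 p 2.03), at 99143533 to 99143960 (2.22-fold, −log10 p 2.03) and at 99144862 to 99145465 (2.78-fold, −log10 p 2.64). The first 2 lay 1.32 and 0.586 kb past the end of the gene, and the summit of the third was in a coding exon. The outer summits were 2.44 kb apart, and all 3 were single-copy. The third was the strongest Treg Ku70 region by fold at any member and, with 604 bp, the widest of the 40. In the whole Treg Ku70 list on autosomes and X, 14 groups of at least 3 regions fell within 3 kb, and 5 of these had single-copy summits throughout. The nearest Tconv summit was 714 kb from the closest of them.

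Itgae, the alpha chain of the E-cadherin receptor CD103, had 2 Treg Ku70 regions on chromosome 11. One was 7.72 kb before the start at 73082778 to 73082917, in an untranslated part of Ncbp3 (2.60-fold, −log10 p 2.64), and the other in an intron at 73098396 to 73098547 (2.22-fold, −log10 p 2.03). Rgs1, which shortens G protein signals from chemokine receptors, had 1 Treg region 14.3 kb past its end on chromosome 1 at 144227977 to 144228256 (2.00-fold, −log10 p 1.42). Ccr8, a receptor found on many tumour Tregs, had its only region in Tconv, on chromosome 9 at 120116441 to 120116580 (1.77-fold, −log10 p 1.47). That region was 21.6 kb past Ccr8 and in an intron of Slc25a38, 1.504 kb from the start of that gene. Ccr4, Ccr6, Cxcr3 and Cxcr4 had no region.

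Of the 6 activation and surface markers, 3 had a region, against 40.0% of genes of like length. Nrp1, a semaphorin receptor found on thymus-derived Tregs, was in both Ku70 lists, at sites 83.5 kb apart. The Tconv region on chromosome 8 at 128344853 to 128345038 lay 13.6 kb before the start (2.63-fold, −log10 p 2.81), and it was the strongest of all 40 by −log10 p. The Treg region at 128428407 to 128428620 was in an exon of the gene (1.85-fold, −log10 p 1.47). Cd69, an early activation antigen that keeps T cells in tissues, had a Treg region 29.8 kb past its end on chromosome 6 at 129237374 to 129237513 (2.41-fold, −log10 p 2.03). It lay in the noncoding RNA gene 2310001H17Rik. The Treg region of Cd83, a surface protein of activated lymphocytes, was on chromosome 13 at 43829202 to 43829358, 26.15 kb past the gene (2.04-fold, −log10 p 1.47). Cd44, Layn and Tfrc had none.

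Sharing between lists was then compared at the level of genes. WT FOXP3 and Treg Ku70 met at 1 member, Themis, which is 25% of the 4 FOXP3 members and 6.67% of the 15 Ku70 members. For all protein-coding genes the share with both was 2.82%, or 39.2% of those with FOXP3 and 12.0% of those with Ku70. WT and KO FOXP3 met at Malt1, which is 25% of 4 WT members and 100% of 1 KO member, against 0.588% of all protein-coding genes with both (8.18% of WT genes and 22.8% of KO genes). Treg and Tconv Ku70 met at Cblb, Nrp1 and Themis. These are 20% of 15 Treg and 60.0% of 5 Tconv members, against 3.48% of all protein-coding genes with both (14.7% of Treg and 32.1% of Tconv genes). The 3 genes are the longest members with a Ku70 region, and 0 of their regions overlapped between the 2 Ku70 lists, as 0 did at any member. In the whole lists such overlap was also rare, at 0.805% of Treg and 2.53% of Tconv regions. When each list was cut to the size of the shortest, 544 regions, by −log10 p, the Treg Ku70 members were Ccr7, Il1rl1 and Itgae (3 of 56, against 2.43% of genes of like length) and the Tconv member was Nrp1 (1 of 56, against 3.61%). WT FOXP3 kept 3 of its 4 members, against 1.89%, and KO FOXP3 its 1, against 2.75%. Many regions are tied, such as 165 WT FOXP3 regions with the values of Malt1 and Themis. Which members a cut keeps may therefore depend on the order of ties.

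By strength the member regions lay within the range of their lists. At all 40 the −log10 q was 0, so none passed a correction for multiple testing. The 4 WT FOXP3 regions ranged from 1.84 to 2.59-fold with a median of 2.29, against 2.02 for that list on autosomes and X. For Treg Ku70 the 27 regions ranged from 1.85 to 2.78-fold, with a median of 2.22 against 2.04, and the median −log10 p was 2.03 against 1.47. Tconv Ku70 regions had a median of 2.19-fold against 2.12, and the 2 KO FOXP3 regions a median of 2.11 against 2.17. Many values were tied, since 8 Treg Ku70 regions at Ccr7, Cd247, Dgka, Icos, Itgae and Nt5e had the same fold of 2.22 and −log10 p of 2.03, as did 814 regions (15.6%) of that list. Such regions cannot be ranked. The strongest member region, at Nrp1, had a −log10 p of 2.81, and the maxima of the lists on autosomes and X were 8.27 and 13.3 for FOXP3 in WT and KO Tregs, and 13.1 and 11.2 for Ku70 in Tregs and Tconv.

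**Figure D4:**
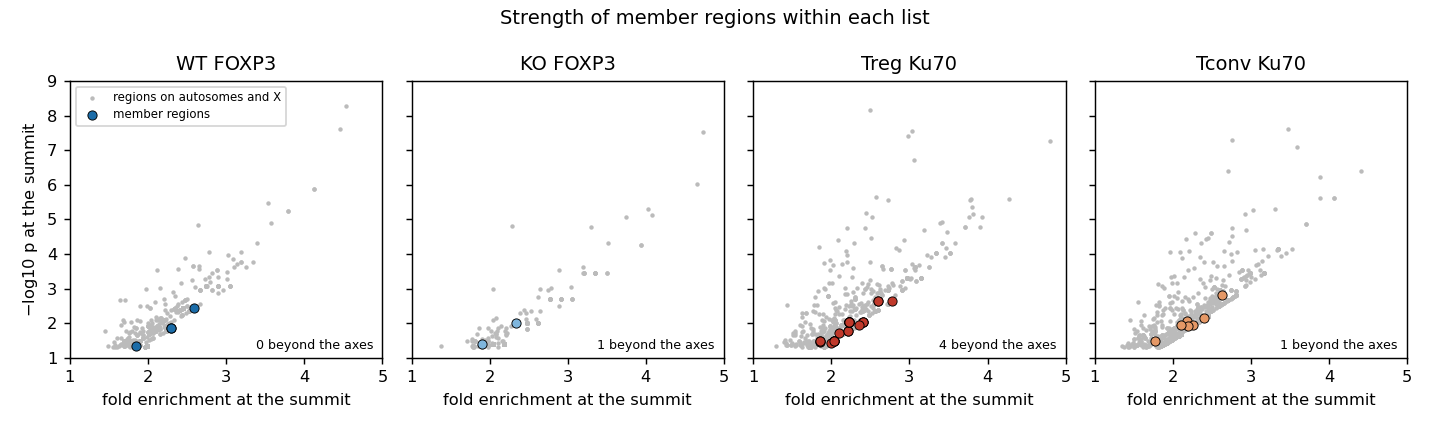
Fold enrichment against −log10 p at the summit for the regions of each list on autosomes and X (grey) and for the member regions (coloured). Member regions lie between 1.77 and 2.78-fold with −log10 p up to 2.81, and 0, 1, 4 and 1 grey regions fall beyond the axes from left to right.

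Position and sequence are only described here, because the genes were chosen with earlier results of these data known. Of the 40 regions, 15 lay in the body of the member, 10 of them in introns and 5 in exons, 11 lay upstream and 14 downstream. Another protein-coding gene held the summit of 7, and the member was the nearest protein-coding gene of 29. The median distance to the nearest protein-coding start was 12.9 kb, and 6 were within 3 kb of one. No background is given here for these positions, so they cannot be called particular to the members. A single-copy summit was found at 36 of the 40. For Treg Ku70 this was 25 of 27 (92.6%), against 71.5% of the list, for Tconv Ku70 7 of 7 against 67.2%, for WT FOXP3 3 of 4 against 65.0% and for KO FOXP3 1 of 2 against 62.7%. The list shares cover all regions on autosomes and X, also those far from any gene, so the backgrounds are unlike. The core TGTTTAC was found in 0 of 27 Treg Ku70, 0 of 7 Tconv Ku70 and 0 of 2 KO FOXP3 windows, against 1.03%, 0.706% and 1.92% of those lists.

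Other genes of the same system were counted from a second list of 52, such as Lat, Vav1, Ptprc and Prf1, none of which is a member. WT FOXP3 regions lay within 50 kb of 6 (11.5%, 5.40 to 23.0%), against 7.92% of genes of like length. KO FOXP3 regions lay at 4 (7.69%, 3.03 to 18.2%, against 2.92%, which is below this interval), Treg Ku70 regions at 16 (30.8%, 19.9 to 44.3%, against 25.7%) and Tconv Ku70 regions at 7 (13.5%, 6.68 to 25.3%, against 12.5%). Ptprc, which encodes the phosphatase CD45, was in all 4 lists. Of 20 genes of B cells and myeloid cells, 0 had a WT FOXP3 region, 1 a KO FOXP3 region, 3 a Treg Ku70 region and 0 a Tconv Ku70 region, against 6.0%, 2.80%, 18.6% and 10.2% of genes of like length, and the upper bound for a count of 0 among 20 was 16.1%.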

How the data were processed

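Reads were trimmed with Trim Galore, mapped to mm10 with Bowtie2 and freed of duplicates with Picard, and MACS2 called regions at a p-value threshold of 0.05 on 2 pooled replicates against 1 input. Tool versions are not given in the sources used here. The deposited fold enrichment is a ratio of summit to local background, and the authors' −log10 p and −log10 q, and a deposited summit offset in bp, belong to the same summit. The names of regions use iTreg, Teff and CKO for what GEO's labels call Treg, Tconv and KO, and groups were taken from the labels.

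Where a region had several summits the strongest was used. Genes came from GENCODE M21, and sequences from the RefSeq GRCm38.p6 genome, the assembly of mm10. Copies of the 31 bases at a summit were counted on both strands. Sequences from chromosome 18 or overlapping untranslated regions are not printed. Counting was tested on simulated data. Work was done in Python 3.11.15 with pandas 2.3.3, numpy 2.4.6, scipy 1.17.1 and matplotlib 3.10.9.

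The members, their roles and the other gene lists were chosen with earlier results of these data known. Every member with a region is named with all of its regions, and the rest by name only. Alternatives were other windows (that around the gene start added after the data were seen), closest genes, stricter or equal-sized lists and other backgrounds. Sequencing reads, inputs and tracks were not used.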

Additional observations from a re-analysis of the deposited data

How the results depend on the processing

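Under the alternatives 60 values were labelled as near the reported one and 41 as moved. The first label was loose. It took in 10 Treg Ku70 members with 3 kb either side (like-length share 8.61%) for the 15 reported. It also took in a Treg Ku70 ratio to like-length genes of 1.47 with single-copy summits alone, for the 1.20 reported. Member counts are given here with the like-length share. With gene bodies alone 2 members had a WT FOXP3 region (like-length share 2.64%), 0 a KO FOXP3 region (0.929%), 8 a Treg Ku70 region (7.11%) and 2 a Tconv Ku70 region (3.46%). With 3 kb either side the counts of WT FOXP3, KO FOXP3 and Tconv Ku70 were 2, 0 and 2 (2.68%, 1.32% and 4.11%). Within 3 kb of the gene start, a measure added after the data were seen, 3 members had a Treg Ku70 region (1.07%), and the other lists had 0 (0.179% for WT FOXP3, 0.321% for KO FOXP3 and 0.25% for Tconv). With 100 kb either side WT FOXP3 had 9 (11.4%), KO FOXP3 2 (4.43%), Treg Ku70 22 (35.1%) and Tconv Ku70 11 (18.1%). Assigning each region to the closest gene left 0 for KO FOXP3 (1.71%) and 3 for Tconv Ku70 (5.36%). A minimum −log10 p of 2 left 1 member for WT FOXP3 (1.25%), 8 for Treg Ku70 (9.5%) and 2 for Tconv (5.61%), and a minimum −log10 q of 2 left 0 in every list, as it did for genes of like length. Lists of equal size left 3 members for Treg Ku70 (2.43%) and 1 for Tconv Ku70 (3.61%). WT FOXP3 with Treg Ku70 moved from 1 member to 5 within 100 kb and to 0 under the minimum −log10 p, the minimum −log10 q and equal sizes. WT with KO FOXP3 moved from 1 to 2 within 100 kb and to 0 with gene bodies, 3 kb, closest genes and both minimum values. Treg with Tconv Ku70 moved from 3 to 0 under both minimum values and equal sizes. Within 3 kb the ratio to like-length genes was 2.07 for Treg Ku70 and 0 for KO FOXP3, and 0 member regions overlapped another list. Wider windows take in more regions, and narrower windows, stricter or shorter lists and closest-gene assignment take in fewer, by construction. No other cause was tested. No paired analysis was possible because each list pools both replicates, and for the same reason no replicate could be left out. Single regions rest on −log10 q of 0, and sequencing depth was not used here.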
